A study of Homo sapiens with 8 samples.

Results

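Chaperones are proteins that help other proteins fold, and the genes described here are those of the endoplasmic reticulum (ER), the cytosol and the mitochondria, together with the sensors and transcription factors that govern their expression. The list holds 40 genes, chosen by name and compartment with earlier results of these data known: 25 act in or for the ER, 12 in the cytosol and 3 in mitochondria. Of these, 36 were measured on a row of the array that carries their symbol alone, out of 22109 such genes, namely 24 ER genes, 11 cytosolic genes and 1 mitochondrial gene, HSPA9. HSP90B1, HSPA8, HSPD1 and HSPE1 lie only on rows shared with other symbols and were not analysed here.

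The cells were MDA-MB-231, an established triple-negative human breast cancer line of mesenchymal character, and total RNA was hybridised to Affymetrix Human Gene 2.1 ST arrays. The high dose group had 2 arrays, the low dose group 3 and the untreated control group 3, all after 24 h. Titles and treatment protocol give an ethanol extract of wild yam (Dioscorea villosa) root, 30 µg/mL for the high and 15 µg/mL for the low dose. In conflict with this, the source names call the high dose samples 3-O-acetyl-β-boswellic acid (46 µg/mL) and the low dose samples Boswellia serrata extract (128 µg/mL), so the agent is not settled and a trend with dose cannot be read. The controls are labelled untreated, with no word on an ethanol vehicle, and nothing says whether replicates came from separate cultures. P-values therefore measure only the spread between these samples, which may be technical.

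VIM, a mesenchymal marker, stood at 8.68 to 9.10 on the log2 scale over the 8 arrays, ESR1, the estrogen receptor gene, at 1.60 to 2.18, and PTPRC, a leukocyte gene, at 0.94 to 1.40. Not every listed marker followed this pattern. CD68, also listed as a leukocyte gene, stood at 7.68 to 8.46, and EPCAM, listed as low in this line, at 4.40 to 5.58. KRT18, listed as present in this line, stood at only 4.165 to 4.856. High 2, low 3 and control 3 stood apart from the other arrays of their groups. The 75th percentile over all genes tested was 4.54, 4.54 and 4.73 on those arrays and between 4.80 and 4.94 on the others. The same arrays were the low ones for the chaperone genes. High 2 lay below high 1 in 28 of 36 measured members, low 3 was the lowest low dose array in 29, and control 3 was the lowest control in 22. Over all genes tested these shares were 64.2%, 60.1% and 46.9%, against 77.8%, 80.6% and 61.1% of the members.

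When unfolded proteins gather in the ER, 3 membrane sensors, IRE1 (the product of ERN1), ATF6 and PERK, set off the unfolded protein response. IRE1 splices the messenger of XBP1, and the spliced form encodes a transcription factor that, with cleaved ATF6, switches on ER chaperones and the machinery that sends misfolded proteins back to the cytosol for destruction, known as ER-associated degradation. In the cytosol and nucleus a separate programme, the heat shock response, is driven by the factor HSF1 and raises the Hsp70, Hsp40, Hsp110 and small heat shock proteins.

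The promoters of ER chaperone genes carry short sequences known to be read by these factors, and those of HSPA5, XBP1, CRELD2, HYOU1 and HERPUD1 are shown because they hold such elements in different positions and orientations. That of ERN1 is shown because ERN1 was the one member that passed the test against controls. Each line gives the 120 bases before the annotated start, on the gene's own strand, from RefSeq on GRCh38.p14. The matched element is in capitals.
HSPA5, chr9:125241344-125241463, minus strand: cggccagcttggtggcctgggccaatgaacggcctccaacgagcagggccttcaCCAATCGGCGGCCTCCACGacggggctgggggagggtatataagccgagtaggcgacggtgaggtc
XBP1, chr22:28800570-28800689, minus strand: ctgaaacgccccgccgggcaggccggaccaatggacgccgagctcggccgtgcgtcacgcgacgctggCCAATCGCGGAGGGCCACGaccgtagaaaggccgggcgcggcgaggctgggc
CRELD2, chr22:49918514-49918633, plus strand: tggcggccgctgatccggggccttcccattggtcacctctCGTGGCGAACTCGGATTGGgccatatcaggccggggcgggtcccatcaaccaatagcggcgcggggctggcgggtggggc
HYOU1, chr11:119057206-119057325, minus strand: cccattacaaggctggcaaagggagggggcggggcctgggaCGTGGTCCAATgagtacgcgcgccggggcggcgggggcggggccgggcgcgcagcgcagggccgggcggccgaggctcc
HERPUD1, chr16:56932022-56932141, plus strand: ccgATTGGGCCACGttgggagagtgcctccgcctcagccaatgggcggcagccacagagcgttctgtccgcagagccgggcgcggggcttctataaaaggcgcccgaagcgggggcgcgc
ERN1, chr17:64130145-64130264, minus strand: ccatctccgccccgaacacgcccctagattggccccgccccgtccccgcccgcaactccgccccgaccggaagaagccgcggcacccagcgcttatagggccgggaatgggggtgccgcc

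Both strands of the window from 250 bases before to 50 bases after the start were searched for 4 elements. The ER stress element is CCAAT, then any 9 bases, then CCACG, and it was found in 6 of 23 measured ER members with a promoter entry (26.1%), against 22 of 27305 promoters (0.0806%). Its holders were CALR, CANX, CRELD2, ERO1B, HSPA5 and XBP1. The related element ERSE-II is ATTGG, any 1 base and CCACG, and HERPUD1, HYOU1 and SDF2L1 hold it, 3 of 23 ER members (13%) against 0.0549% of all promoters. The element TGACGTGG stood in HYOU1 alone, where it overlaps a second ERSE-II further upstream than the stretch shown, and in 0.795% of all promoters. In total 9 of 23 ER members (39.1%) held any of these 3, against 0.927% of all promoters. Since such elements were already known from promoters of ER chaperone genes, these shares describe the list and are not a new result. A heat shock element, taken as GAA, TTC and GAA (or TTC, GAA and TTC) with 2 bases between neighbours, was in 1 of 10 cytosolic members, DNAJA1, in 0 of 23 ER members and in 0.487% of all promoters. Only exact matches were counted, so a gene without one may still hold a variant form or an element outside the window. A match describes letters in the window and is not a measure of binding.

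At the low dose, 1 of the 36 measured members passed the test against controls, ERN1, which was higher. Of all genes tested, 3.00% were called there, 1.19% higher and 1.81% lower, in counts 264 and 400 (612 and 570 after quantile normalization, 459 and 370 after subtracting each array's 75th percentile). A gene is called at an adjusted p under 0.05 in a limma fit over all 8 arrays, adjusted over the 22109 genes by the Benjamini-Hochberg method. In the high dose group 0 of 36 members were called, beside 0.814% of all genes (0.425% higher and 0.389% lower), and between the high and low doses 0 of 36, beside 0.00452%. Before adjustment, 5 members were higher and 2 lower at p under 0.05 at the high dose against control (13.9% and 5.56%, beside 3.03% and 11.4% of all genes). For the low dose, 3 were higher and 0 lower (8.33% and 0%, beside 5.38% and 8.77% of all genes). In RNA from whole cultures, a change in every cell and a larger change in some cells cannot be told apart.

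**Figure D1:**
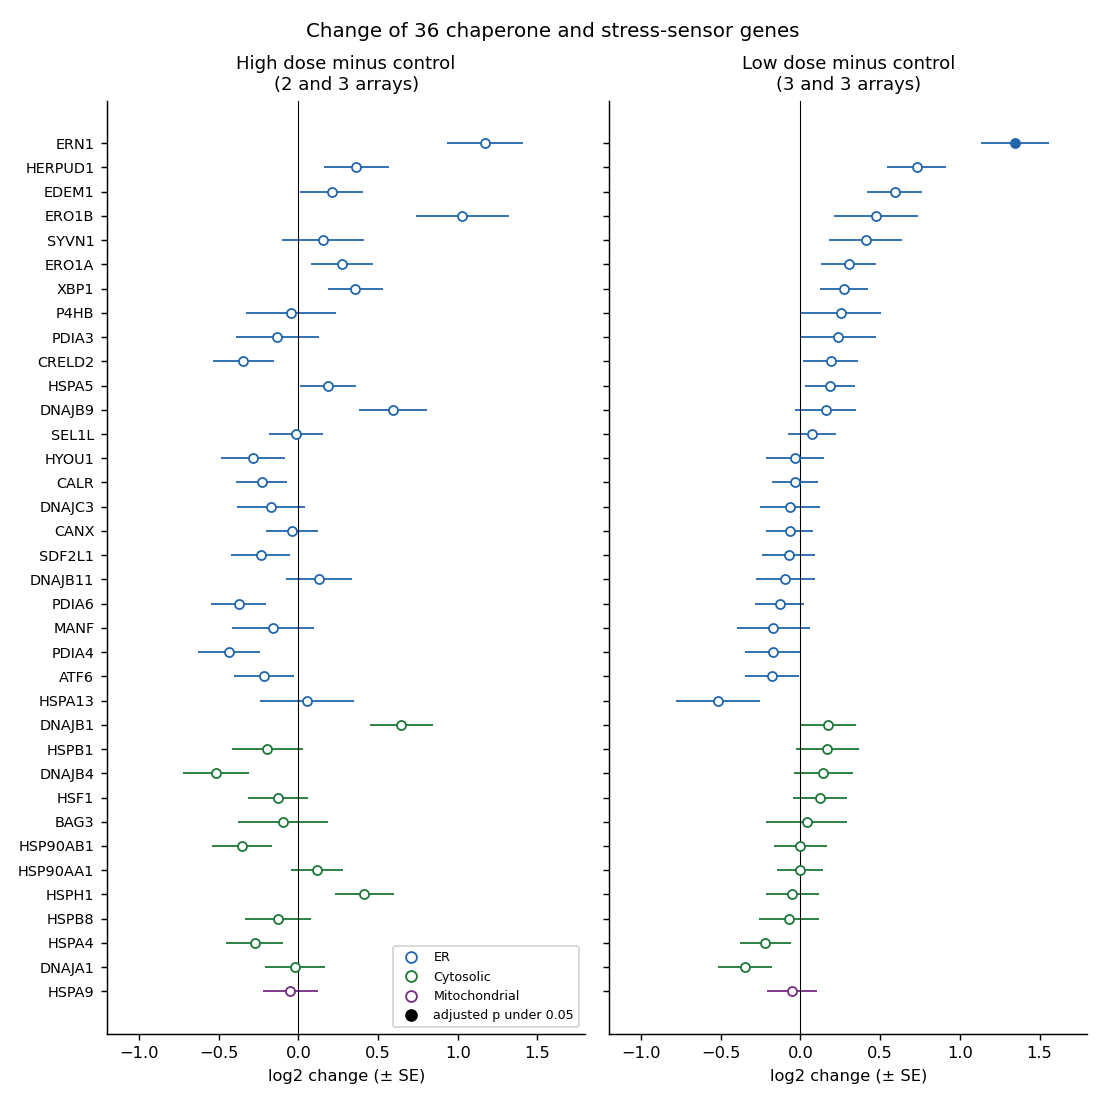
Log2 change (with its standard error) of the 36 measured members, with high dose minus control on the left and low dose minus control on the right, coloured by compartment. Filled points passed an adjusted p of 0.05, which ERN1 alone did, at the low dose; most of the other points lie within 0.5 of zero.

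Sensors and factors of the ER response come first. ERN1 stood at log2 levels of 4.75 and 4.39 in the high dose arrays, at 5.06, 4.86 and 4.33 in the low dose arrays, and at 3.55, 3.51 and 3.15 in the controls. Every treated array lay above every control. The low dose exceeded the control by 1.34 ± 0.21 on the log2 scale (SE, 95% interval 0.88 to 1.81), a 2.54-fold higher level, with an adjusted p of 0.00723. The high dose exceeded the control by 1.17 ± 0.24 (interval 0.65 to 1.69), and its adjusted p of 0.053 missed the threshold. It was called under 9 of 18 alternatives (adjusted p 0.003 to 0.214 over all 18), among them quantile normalization, subtraction of medians or 75th percentiles, the filter on dim genes, array weights and the replicate block. Leaving out 1 array gave a call without control 3 (adjusted p 0.034) or low 3 (0.0288), but not without any of the others. The doses did not differ detectably in ERN1, with a difference of -0.17 ± 0.24 (adjusted p = 0.866).

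XBP1, the target of IRE1's splicing, was at 6.03 and 6.04 in the high dose arrays, at 6.09, 6.04 and 5.73 in the low dose arrays, and at 5.75, 5.61 and 5.68 in the controls. The high dose arrays lay above all controls, and low 3 fell among them. Neither difference passed the test: 0.36 at the high dose (adjusted p = 0.368) and 0.27 at the low dose (adjusted p = 0.481). One value for the gene does not tell its spliced from its unspliced form. ATF6, the sensor that is cleaved in the Golgi, averaged 7.24 ± 0.27 at the high dose, 7.27 ± 0.20 at the low dose and 7.45 ± 0.07 in controls (SD), and passed no test.

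The genes of ER-associated degradation had the highest median change of the ER roles at the low dose, 0.50 over 4 genes, and all 4 changes were positive. The same 4 had a median of 0.18 at the high dose, against controls, below the 0.36 of the 3 sensors and factors. SEL1L was slightly negative there, at -0.02. HERPUD1, a membrane protein that helps to assemble the degradation complex, was at 5.88 and 5.80 in the high dose arrays, at 6.27, 6.40 and 5.95 in the low dose arrays, and at 5.69, 5.57 and 5.17 in the controls. Both treated groups lay above all controls. At the low dose the difference was 0.73 ± 0.18 (adjusted p = 0.0642), and with the replicate number as a block the adjusted p was 0.0184. The high dose exceeded the controls by 0.36 (adjusted p = 0.447).

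EDEM1, which extracts misfolded glycoproteins from the folding cycle, was at 6.10 and 5.63 in the high dose arrays, at 6.36, 6.36 and 6.03 in the low dose arrays, and at 5.69, 5.73 and 5.55 in the controls. The low dose arrays lay above all controls, and high 2 fell among the controls. The difference was 0.59 ± 0.17 at the low dose (adjusted p = 0.113) and 0.21 at the high dose (adjusted p = 0.673). The ubiquitin ligase SYVN1 differed from controls by 0.41 at the low dose and its partner SEL1L by 0.07, with adjusted p-values of 0.487 and 0.905.

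HSPA5, the main Hsp70 of the ER (BiP) and a textbook target of ATF6, was at 9.64 and 9.48 in the high dose arrays, at 9.60, 9.49 and 9.58 in the low dose arrays, and at 9.50, 9.49 and 9.12 in the controls. The groups overlap, and control 3 is the lowest array. Each treated group was 0.19 above the control, with 95% intervals of -0.20 to 0.58 at the high dose and -0.16 to 0.53 at the low dose, and adjusted p-values of 0.678 and 0.698. The interval at the low dose lies below that of ERN1.

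The 8 ER Hsp70 and J-domain chaperones and their partners had median changes of -0.05 at the high dose and -0.07 at the low dose, against controls. DNAJB9, a J-domain co-chaperone of BiP that also restrains IRE1, was at 4.51 and 4.53 in the high dose arrays, at 4.35, 4.17 and 3.74 in the low dose arrays, and at 3.96, 3.69 and 4.14 in the controls. Both high dose arrays were above all others, by 0.59 over the controls on average (adjusted p = 0.239). HSPA13, an Hsp70 of microsomes, was at 7.19 and 6.86 in the high dose arrays, at 6.67, 6.55 and 6.13 in the low dose arrays, and at 6.73, 6.56 and 7.61 in the controls. Control 3 was the highest array, and low 2 and low 3 lay below all controls. The low dose differed from controls by -0.52 ± 0.26 (adjusted p = 0.424), and by -0.20 without control 3.

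HYOU1, the ER's large Hsp110-like exchange factor, differed from controls by -0.29 at the high dose and -0.04 at the low dose. The J-domain proteins DNAJB11 and DNAJC3, SDF2L1 and the secreted factor MANF lay between -0.24 and 0.13 at the high dose and between -0.17 and -0.07 at the low dose. The calcium-binding lectin chaperones of the glycoprotein cycle, CALR and CANX, differed by -0.23 and -0.04 at the high dose and by -0.04 and -0.07 at the low dose. None of these passed the test.

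Thiol oxidoreductases make and shuffle disulfide bonds, and their 7 members had a median change of -0.13 at the high dose and 0.24 at the low dose. The oxidases that recharge them lay on the positive side. ERO1B was at 2.86 and 3.86 in the high dose arrays, at 2.55, 3.03 and 2.83 in the low dose arrays, and at 2.38, 1.99 and 2.62 in the controls. The high dose arrays lay above all controls but far apart from each other, and the difference of 1.03 ± 0.29 had an adjusted p of 0.149. It was 0.53 without high 2 (adjusted p = 0.689) and 1.53 without high 1 (0.0936), and it was called without control 3 (1.18, adjusted p = 0.0474). ERO1A differed from controls by 0.27 at the high dose and 0.30 at the low dose.

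The isomerase PDIA4 was at 6.62 and 6.25 in the high dose arrays, at 6.84, 6.78 and 6.49 in the low dose arrays, and at 6.99, 6.95 and 6.68 in the controls. PDIA6 was at 6.001 and 5.757 in the high dose arrays, at 6.14, 6.29 and 5.95 in the low dose arrays, and at 6.30, 6.23 and 6.23 in the controls. Both were below all controls at the high dose, by 0.43 and 0.38, but their adjusted p-values of 0.337 and 0.352 missed the threshold. Without high 2, PDIA4 differed by -0.25. CRELD2, a thiol oxidoreductase-like protein with an ER stress element, was at 3.38 and 3.00 in the high dose arrays, at 3.77, 3.58 and 3.82 in the low dose arrays, and at 3.71, 3.59 and 3.30 in the controls. Both high dose arrays were below all low dose arrays, with a difference of -0.53 (adjusted p = 0.492), which was -0.35 without high 2. P4HB and PDIA3 differed from controls by -0.05 and -0.13 at the high dose and by 0.25 and 0.24 at the low dose. The change of PDIA3 was the median of the 7 thiol oxidoreductases at either dose. Its mean log2 level was 2.14, below the median level of 2.75 over all genes tested, so it may lie near background. Its low dose arrays spread widely, at 2.47, 1.747 and 2.748. ERO1B and CRELD2 were also dim, with mean levels of 2.77 and 3.52.

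**Figure D2:**
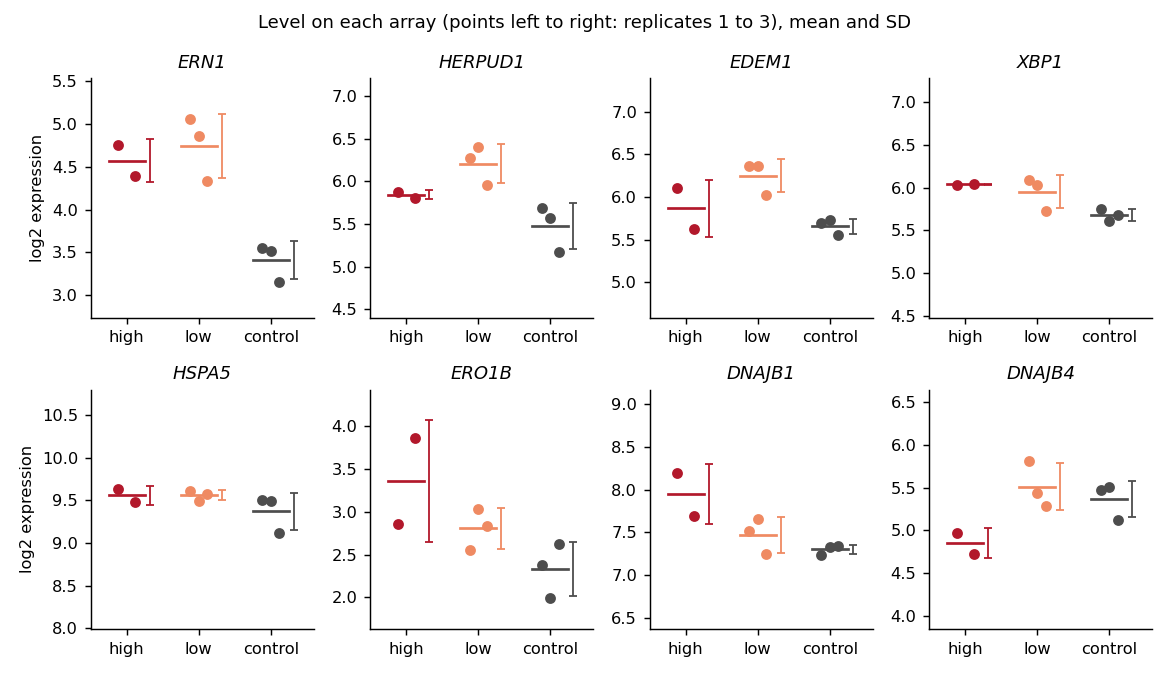
Log2 level on each array of 8 members, with high dose, low dose and control from left to right; points are arrays, lines are group means, and bars beside them are SD (n = 2, 3 and 3). ERN1 and HERPUD1 lie above all controls in every treated array, HSPA5 overlaps between groups, and DNAJB1 is highest and DNAJB4 lowest in the high dose arrays.

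Among cytosolic genes, HSF1, the factor of the heat shock response, was at 4.83 and 4.64 in the high dose arrays, at 5.08, 5.12 and 4.75 in the low dose arrays, and at 4.85, 5.06 and 4.69 in the controls. The groups overlap, with differences of -0.13 at the high dose and 0.12 at the low dose. The sign at the high dose was positive after quantile normalization (0.07) and after subtracting 75th percentiles (0.06). HSP90AA1, the inducible cytosolic Hsp90, was at 6.32 and 6.11 in the high dose arrays, at 6.18, 6.05 and 6.04 in the low dose arrays, and at 6.16, 6.13 and 5.999 in the controls. Its 95% interval was -0.24 to 0.48 at the high dose and -0.33 to 0.32 at the low dose.

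DNAJB1, the main stress-inducible Hsp40, was at 8.195 and 7.695 in the high dose arrays, at 7.52, 7.66 and 7.24 in the low dose arrays, and at 7.24, 7.33 and 7.33 in the controls. The high dose arrays lay above all others, and the excess over controls was 0.65 ± 0.20 (adjusted p = 0.172). It was 0.40 without high 1 and 0.90 without high 2, and it was called after quantile normalization (adjusted p = 0.0147) or subtraction of 75th percentiles (0.0486). HSPH1, an Hsp110 exchange factor, also had both high dose arrays above all others, though high 2 only narrowly above control 3. It was at 7.93 and 7.58 in the high dose arrays, at 7.42, 7.22 and 7.23 in the low dose arrays, and at 7.26, 7.23 and 7.54 in the controls. Its difference at the high dose was 0.41 (adjusted p = 0.333).

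DNAJB4, another cytosolic J-domain protein, was at 4.97 and 4.73 in the high dose arrays, at 5.81, 5.43 and 5.28 in the low dose arrays, and at 5.47, 5.50 and 5.12 in the controls. The high dose arrays lay below all others, by 0.52 ± 0.21 against controls (adjusted p = 0.283) and by 0.66 ± 0.21 against the low dose (adjusted p = 0.417). DNAJA1 was the only cytosolic member with an exact match to the heat shock element searched, at bases 4 to 16 of the transcript. It was at 8.40 and 8.58 in the high dose arrays, at 8.32, 8.30 and 7.87 in the low dose arrays, and at 8.48, 8.40 and 8.65 in the controls. The low dose arrays were below all others, with a difference of -0.35 from controls (adjusted p = 0.403), which was -0.20 without low 3.

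HSPA4, a further Hsp110 family member, was at 7.65 and 7.44 in the high dose arrays, at 7.74, 7.56 and 7.50 in the low dose arrays, and at 7.805, 7.647 and 7.998 in the controls. It differed by -0.27 at the high dose and -0.22 at the low dose, with adjusted p-values of 0.512 and 0.624. HSP90AB1, the constitutive Hsp90, lay below all controls at the high dose with a difference of -0.35 (adjusted p = 0.413). The small heat shock proteins HSPB1 and HSPB8 and the co-chaperone BAG3 differed from controls by -0.20 to -0.10 at the high dose and by -0.07 to 0.17 at the low dose. HSPA9, the mitochondrial Hsp70 (mortalin), differed by -0.05 at either dose on the brighter of its 2 rows and by 0.11 at the high and 0.17 at the low dose on the other.

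Arrays of a treated group that do not overlap the controls were counted for each compartment. In the high dose group 5 of 24 ER members lay above all controls (20.8%; ERN1, ERO1B, DNAJB9, HERPUD1 and XBP1), against 7.07% of all genes, and 3 lay below (12.5%; CALR, PDIA4 and PDIA6), against 22.9% of all genes. Of the 11 cytosolic members 2 lay above and 2 below (18.2% each), so the share above was near that of the ER members. At the low dose 3 of 24 ER members lay above all controls (12.5%; ERN1, HERPUD1 and EDEM1), against 7.03% of all genes, and 0 lay below, against 13.0%. For the cytosolic members these counts were 0 above and 1 below (0% and 9.09%). Between the high and the low dose, 6 members lay above and 6 below (16.7% each), against 8.77% and 16.7% of all genes. The sets differ in level. A mean log2 level below 4 was found in 6 of the 24 ER members and in 14559 of the 22109 genes tested. ERO1B, counted above at the high dose, averaged 2.77, with high dose arrays at 2.86 and 3.86.

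Compartments were compared first by their median changes. The median change at the high dose was -0.03 over the 24 ER members and -0.11 over the 12 cytosolic and mitochondrial members, beside -0.12 over all genes tested. At the low dose it was 0.11 over the ER members and -0.003 over the others, beside -0.04 over all genes. The ER median thus exceeded that of the others by 0.08 at the high dose and 0.12 at the low dose, and that excess changed sign when 1 array was left out: it was -0.003 at the high dose without high 1 and -0.023 at the low dose without control 2. The ER median at the high dose was itself positive, at 0.12, without high 2. The excess was not shared by all ER roles. At the low dose the median was -0.07 over the Hsp70 and J-domain group and -0.05 over the lectin chaperones. It was 0.24 over the thiol oxidoreductases, 0.50 over ER-associated degradation and 0.27 over the sensors and factors. At the high dose these medians, in the same order, were -0.05, -0.13, -0.13, 0.18 and 0.36. The median over all genes at the high dose was itself a matter of scaling, at 0.07 after subtracting 75th percentiles and -0.02 after quantile normalization.

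**Figure D3:**
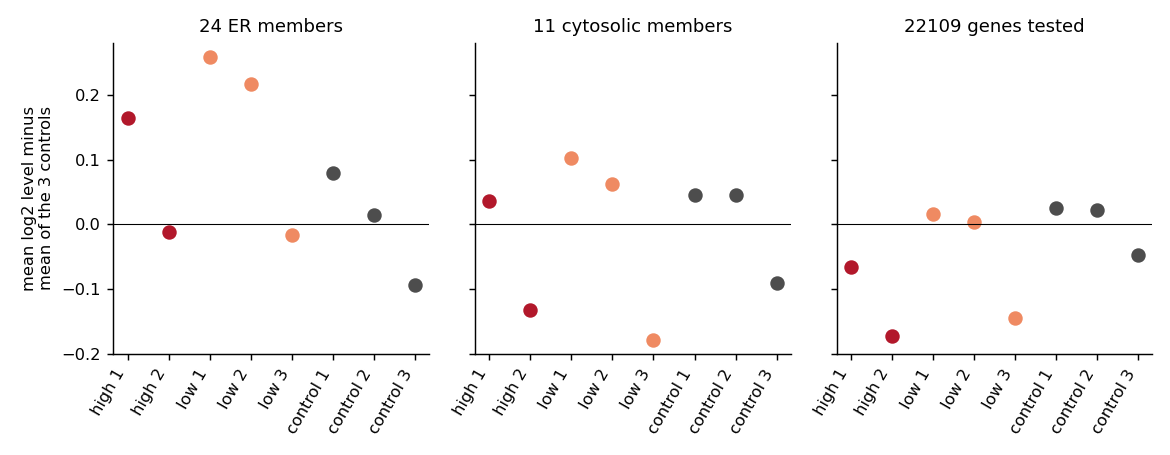
Mean log2 level on each array, minus the mean of the 3 controls, for the 24 ER members, the 11 cytosolic members and all genes tested, with high dose, low dose and control arrays from left to right. In each panel high 2, low 3 and control 3 lie below the other arrays of their group.

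As array means, the 24 ER members stood at 5.91 and 5.74 in the high dose arrays, at 6.01, 5.97 and 5.73 in the low dose arrays, and at 5.83, 5.76 and 5.66 in the controls. The 11 cytosolic members stood at 6.62 and 6.46 in the high dose arrays, at 6.69, 6.65 and 6.41 in the low dose arrays, and at 6.63, 6.63 and 6.50 in the controls. The groups overlap in both, and the within-group SD of these means was 0.12 for either compartment. The 2 compartments moved together from array to array, so that the mean of the ER members minus that of the 12 others on the same array had a within-group SD of 0.024. That difference was -0.95 and -0.97 in the high dose arrays, -0.92, -0.92 and -0.93 in the low dose arrays, and -1.06, -1.12 and -1.07 in the controls. Every treated array lay above every control, by 0.12 on average at the high dose and 0.16 at the low dose. Without ERN1 these averages were 0.08 and 0.11, and the treated arrays still did not overlap the controls. The ER members were dimmer, with a median log2 level of 5.90 against 7.48 over the 12 others. Over genes with a mean level of at least 4, the median change was -0.24 at the high dose and -0.08 at the low dose. Over all genes tested it was -0.12 and -0.04. With only such brighter genes, the excess of the ER median was 0.115 at the high dose and 0.02 at the low dose. Whether level accounts for part of the compartment difference was not tested. No test is given for the difference in means, since the members were chosen with earlier results known.

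ER members that hold one of the 3 ER elements were set beside those that do not. The median change at the high dose was -0.04 over the 9 holders and 0.02 over the other 14, and at the low dose it was 0.19 over the holders and 0.00 over the others. The holders ranged from -0.34 (CRELD2) to 1.03 (ERO1B) at the high dose and from -0.07 (SDF2L1) to 0.73 (HERPUD1) at the low dose. ERN1, whose change was the largest of all members at either dose, holds none of the elements in the window searched.

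**Figure D4:**
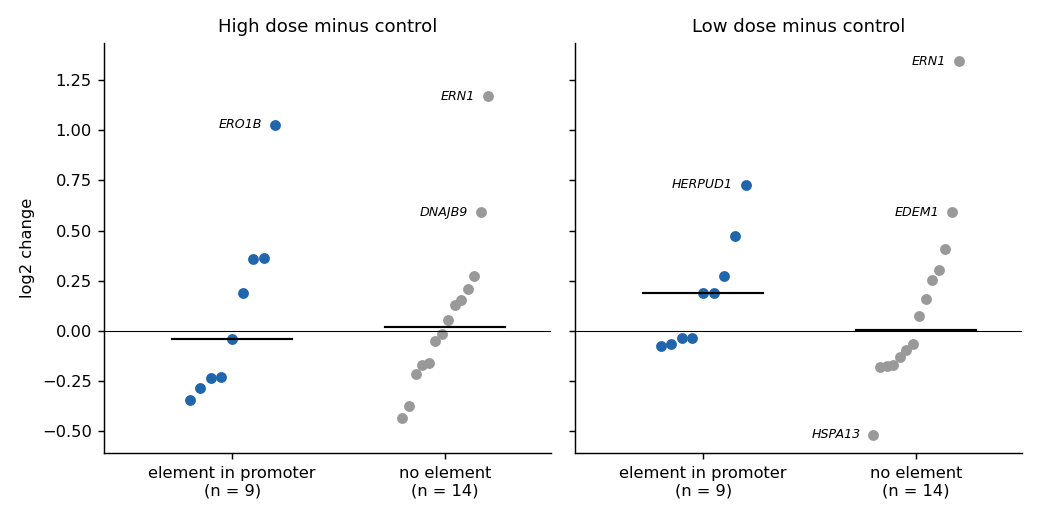
Log2 change of the ER members with (n = 9) and without (n = 14) an ER stress element in the promoter window, with high dose minus control on the left and low dose minus control on the right; lines are medians. The holders' medians are -0.04 at the high dose and 0.19 at the low dose, and the points of the 2 sets overlap.

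Other genes of the same pathways were taken from a list of 45 measured ER stress genes, 40 cytosolic and 14 mitochondrial folding genes. One ER gene was called higher at the high dose, DDIT3, which encodes the transcription factor CHOP downstream of PERK, with a change of 1.67 ± 0.17 (adjusted p = 0.00217). At the low dose 2 were called higher, DDIT3 by 1.31 ± 0.15 (adjusted p = 0.00235) and PPP1R15A (GADD34, which helps to restart translation) by 1.33 ± 0.28 (adjusted p = 0.0286). The call of PPP1R15A was lost without low 1 (adjusted p = 0.112), low 2 (0.129) or either high dose array (0.0505). The 45 genes had median changes of -0.18 at the high dose and 0.03 at the low dose.

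Of the cytosolic genes, HSPA6, an Hsp70 known to be strictly stress-inducible, was called higher at the high dose. It was at 4.95 and 5.33 in the high dose arrays, at 3.70, 3.95 and 3.53 in the low dose arrays, and at 3.84, 3.15 and 2.63 in the controls, a 3.80-fold higher level at the high dose (1.93 ± 0.30, adjusted p = 0.0175). The call was lost without control 2 (0.069), high 1 (0.0936) or high 2 (0.205), while the difference stayed between 1.64 and 2.24 with any 1 array left out. Without a high dose array the remaining one is assumed to vary like the other groups. HSPA6 probes may be shared with the near-identical HSPA7. HSPA1A and HSPA1B share a row and were not analysed here.

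At the low dose 2 cytosolic genes were called lower. HSPA14, a ribosome-associated Hsp70, was at 5.19 and 4.92 in the high dose arrays, at 5.06, 4.78 and 4.69 in the low dose arrays, and at 5.88, 5.76 and 6.32 in the controls, a difference of -1.14 ± 0.19 at the low dose (adjusted p = 0.00874). HSPA4L, an Hsp110 relative, was at 6.19 and 5.88 in the high dose arrays, at 5.37, 5.24 and 5.01 in the low dose arrays, and at 6.06, 5.90 and 6.66 in the controls, a difference of -1.003 ± 0.211 (adjusted p = 0.0278). Its call was lost without control 1 (0.061), low 1 (0.0667), low 2 (0.0975) or low 3 (0.1). The 40 cytosolic genes had medians of -0.26 at the high dose and -0.19 at the low dose. None of the 14 mitochondrial genes was called, and their medians were -0.38 at the high dose, where 0 of 14 were positive, and -0.16 at the low dose. Over all genes tested the medians were -0.12 at the high dose, where 32.6% were positive, and -0.04 at the low dose. Among genes with a mean log2 level of at least 4, the medians were -0.24 at the high dose and -0.08 at the low dose.

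One marker of another cell type moved at the low dose. COL1A1, a fibroblast collagen gene that carcinoma cells can also express, was at 3.40 and 3.11 in the high dose arrays, at 4.08, 4.12 and 3.91 in the low dose arrays, and at 3.45, 3.24 and 3.16 in the controls, with a difference of 0.76 ± 0.16 (adjusted p = 0.0262). It was the only one of 4 fibroblast markers called, its call was lost without any one of controls 1 to 3, low 1 or low 2 (adjusted p 0.0508 to 0.127), and its part in the chaperone values was not tested.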

How the data were processed

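The deposited table holds log2 expression values of 53617 probe sets on 8 arrays, which the authors made with the Transcriptome Analysis Console, per the submitters' processing notes. How they were summarized and normalized is not stated in these sources. Base 2 follows from the highest value, 12.1, which lies above the natural logarithm of a 16-bit scanner's ceiling. Values were used as deposited. No measure of background was at hand, so whether dim genes were detected is not known. Precision is limited by the number of arrays.

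Rows were named through GEO's platform annotation, 23558 with 1 symbol, 2155 with several and 27904 unnamed. For the 618 genes with several rows the row with the highest mean was kept, leaving 22109 genes. limma 3.58.1 in R 4.3.3 was fitted with 1 mean per group and the contrasts high against control, low against control and high against low, adjusted by Benjamini-Hochberg. The script was tested on simulated data.

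The members and lists were chosen with earlier results of these data known. Values per array are given for called members, for HSPA5, XBP1, HSF1 and HSP90AA1, and for the 3 largest changes per direction and comparison. HSPH1, DNAJB9 and the genes named by their non-overlapping arrays were added after their values were seen. Other pathway genes are named where called.

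Deviations from the group means correlated at r = 0.103, 0.153 and 0.203 for same-numbered control and low dose arrays. The unlike-numbered low 2 and control 1 reached 0.122, and same-numbered high dose and control arrays 0.094 and -0.049. These values do not settle a pairing, and the labels state none. The reported fit therefore used no pairing, and the replicate number entered only as an alternative block. Alternatives were other normalizations, a filter on dim genes, a mean of a gene's rows, another prior, array weights, the replicate block, fits of 2 groups alone and arrays left out. Promoters came from RefSeq (GRCh38.p14), with 34 of 36 measured members matched.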

Additional observations from a re-analysis of the deposited data

How the results depend on the processing

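ERN1 at the low dose was called under all 19 alternatives run (1.19 to 1.55, adjusted p 7.51e-05 to 0.0413), and ERN1 at the high dose under 9 of 18 (adjusted p 0.003 to 0.214). HERPUD1 at the low dose was called under 8 of 19 and EDEM1 under 4. The replicate block gave 2 members called at the low dose, ERN1 and HERPUD1 (also 2 with control and low arrays alone, chosen after seeing the data), and 1 at the high dose, ERN1. For all genes the block gave 1059 at the low dose, 1228 at the high dose and 219 between doses, and an ER excess of 0.13 at the high dose and -0.15 between doses. Members called at the low dose, 1 as reported, were 3 after quantile normalization, 75th percentiles, array weights and without control 3, low 3 and high 2 together, and 2 after medians and the dim filter. In the high dose group, 0 as reported, they were 2 after quantile normalization, 75th percentiles and weights, 1 after medians and the dim filter, and 3 without those 3 arrays. With 1 array left out they were 1 at the low dose and 0 to 2 at the high dose (2 without control 3, 1 without low 3).

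Genes called at the low dose, 664 as reported, were 1182 after quantile normalization, 2055 with weights and 1278 without the 3 arrays; with 1 array left out they were 266 to 658, 386 without control 1, 432 without control 2, 361 without low 1, 266 without low 2 and 440 without low 3. At the high dose, 180 as reported, they were 459 after quantile normalization, 283 after medians, 291 after 75th percentiles, 1004 with weights, 46 in the fit of 2 groups and 1563 without the 3 arrays; with 1 array left out they were 19 to 990, with 48 without control 1, 53 without control 2, 990 without control 3, 79 without low 1, 87 without low 2, 19 without high 1 and 24 without high 2. Leaving out high 1, high 2 or the 3 arrays together leaves 1 high dose array, which is assumed to vary like the other groups, so these counts say little about stability. Those calls were 94 higher and 86 lower as reported, 326 and 133 after quantile normalization, 179 and 104 after medians and 230 and 61 after 75th percentiles. Between doses, 1 as reported, they were 2 after quantile normalization and 75th percentiles, 0 with the dim filter, 69 with weights, 53 in the fit of 2 groups and 220 without the 3 arrays, and 0 to 174 with 1 array left out.

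The excess of the ER median over the other members, 0.12 at the low dose, was 0.071 after quantile normalization, 0.066 with weights, 0.02 with the dim filter, 0.062 without the 3 arrays and -0.023 to 0.118 with 1 array left out. At the high dose, 0.08 as reported, it was 0.12 with the dim filter, 0.14 with weights, 0.21 without the 3 arrays and -0.003 to 0.203 with 1 array left out. Between doses, -0.08 as reported, it was -0.041 after quantile normalization, -0.043 with the dim filter, -0.175 with weights, -0.013 without the 3 arrays and -0.193 to 0.029 with 1 array left out.

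Some values near zero changed sign. HSP90AA1 at the low dose was 0.096 after quantile normalization, 0.007 after medians, 0.063 after 75th percentiles and -0.052 to 0.027 with 1 array left out. HSF1 at the high dose was 0.068 after quantile normalization and 0.064 after 75th percentiles. Between doses HSPA5 was -0.058 with the block and -0.078 to 0.078 with 1 array left out, and XBP1 was -0.032 without the 3 arrays and -0.026 to 0.154 with 1 left out. The cause was not tested for any of these changes. Signal over background was not at hand, so the 7 members with a mean log2 level below 4 may lie near background. They were PDIA3, ERO1B, SDF2L1, CRELD2, MANF, SYVN1 and HSPB8.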
